A study of Mus musculus with 6 samples.

Results

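The genes described here run the cell division cycle, in 3 classes: 18 G1 regulators and inhibitors, 16 S phase replication genes and 21 G2/M genes. They were set against each other in the floor plate and the neighbouring ventral lateral region of the mouse midbrain at embryonic day 10.5. All probe sets annotated to exactly 1 of these 55 gene symbols were taken, which gave 126 of the 45037 non-control probe sets on the array and 54 of the 18193 genes named by them. Ccnb1 had no such probe set and has no values below. The study holds 3 floor plate samples and 3 ventral lateral samples, all from C57BL/6 embryos of mixed sex, with no transgene or treatment named in the labels. Each sample was dissected tissue pooled from 6 embryos, and the 2 regions did not overlap in the dissection. The labels do not say whether pools of the 2 regions came from the same embryos. The p-values rest on the spread between samples of the same region, which may be partly technical. RNA (5 ng a sample) was amplified, labelled and hybridised to Affymetrix arrays, 1 array a sample.

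D-type cyclins bind CDK4 or CDK6 in G1, and these kinases phosphorylate the retinoblastoma protein, which frees E2F factors to switch on the genes of DNA replication. INK4 inhibitors such as the product of Cdkn2c bind CDK4 and CDK6 directly, while Cdkn1a and Cdkn1b encode inhibitors that act mainly on cyclin E-CDK2. Cyclin B with CDK1 drives entry into mitosis, and the anaphase-promoting complex with CDC20 ends it. In the early neural tube the dividing cells are neuroepithelial progenitors, and their daughters leave the cycle as they become neurons. The spinal cord floor plate is known as a strip of slowly dividing cells, whereas the midbrain floor plate gives rise to dopaminergic neurons.

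For every probe set the deposited log values were centred on that probe set's median across the 6 arrays. They show how the samples differ for 1 probe set and hold no expression level, so levels of different genes cannot be compared. The log base and direction are not stated, so base 2 and a higher value for more RNA were assumed. The 6 arrays had medians between -0.003 and 0.0045 over all probe sets. A floor plate marker list checked the labels: 9 of 10 genes were higher in floor plate and none was lower, among them Corin (log2 difference 6.36), Lmx1a (3.71) and Foxa2 (1.76). Shh, at 1.76, missed the threshold (limma, adjusted p = 0.0734). A gene or probe set was called where the limma fit over all 45037 probe sets gave a Benjamini-Hochberg adjusted p under 0.05. Counts of genes use 1 probe set a gene, the one with the largest variance over the 6 arrays. Counted so, 4.25% of all 18193 genes were higher in floor plate and 2.97% lower.

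The promoters of the 3 classes are described first. RefSeq promoter windows (mouse build GRCm38.p6, 250 bases before to 50 after the gene start) matched 42 of the 55 genes. They were searched on both strands for the cell cycle homology region (CHR, TTTGAA), the CCAAT box (CCAAT) and E2F sites (TTGGCGC in one form, with TTCGCGC as another, then also TTCCCGC and finally the form TTGCCGC, which can overlap one another). A CHR stood in 12 of 17 G2/M promoters, in 2 of 12 S phase genes and in 2 of 13 G1 genes, against 20.2% of all 27025 genes with a window. All 12 of these G2/M promoters also held a CCAAT box, a combination found in 7.97% of all genes. An E2F site stood in 8 of 12 S phase genes, 5 of 13 G1 genes and 3 of 17 G2/M genes, against 10.9% of all genes. A match is a description of the letters and not a site shown to be used.

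The sequences that follow are the promoters of both genes that were higher in floor plate, then 1 S phase and 2 G2/M promoters that hold several of these letters. Capitals mark every match to a CHR, a CCAAT box or an E2F site, in either direction, so that ATTGG is a CCAAT box read on the other strand.
Cdkn2c (higher in floor plate, chr4:109666707-109667006, minus strand): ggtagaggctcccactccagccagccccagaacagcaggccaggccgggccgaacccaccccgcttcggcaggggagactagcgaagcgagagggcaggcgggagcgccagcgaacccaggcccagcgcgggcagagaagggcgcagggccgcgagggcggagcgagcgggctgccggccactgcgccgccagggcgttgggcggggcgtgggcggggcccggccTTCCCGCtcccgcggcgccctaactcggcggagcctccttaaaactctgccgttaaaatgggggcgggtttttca
Cdk6 (higher in floor plate, chr5:3343643-3343942, plus strand): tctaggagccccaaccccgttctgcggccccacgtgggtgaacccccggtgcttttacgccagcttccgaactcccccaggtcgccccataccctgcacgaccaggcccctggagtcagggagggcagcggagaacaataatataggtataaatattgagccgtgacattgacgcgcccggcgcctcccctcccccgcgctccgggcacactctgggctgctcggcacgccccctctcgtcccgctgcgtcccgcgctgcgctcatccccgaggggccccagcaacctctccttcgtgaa
Mcm5 (S phase, chr8:75109259-75109558, plus strand): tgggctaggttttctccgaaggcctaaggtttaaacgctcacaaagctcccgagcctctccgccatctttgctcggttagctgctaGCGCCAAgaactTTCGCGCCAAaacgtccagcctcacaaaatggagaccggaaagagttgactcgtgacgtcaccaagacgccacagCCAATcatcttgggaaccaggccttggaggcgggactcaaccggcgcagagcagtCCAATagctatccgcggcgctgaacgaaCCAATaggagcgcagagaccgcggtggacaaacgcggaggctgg
Cdk1 (G2/M, chr10:69352863-69353162, minus strand): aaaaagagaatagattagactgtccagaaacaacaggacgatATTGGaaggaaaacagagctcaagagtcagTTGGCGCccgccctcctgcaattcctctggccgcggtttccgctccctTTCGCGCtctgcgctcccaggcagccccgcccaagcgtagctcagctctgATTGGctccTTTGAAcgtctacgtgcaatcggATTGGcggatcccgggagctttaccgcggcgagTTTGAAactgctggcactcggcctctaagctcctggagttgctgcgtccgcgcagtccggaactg
Ccnb2 (G2/M, chr9:70421505-70421804, minus strand): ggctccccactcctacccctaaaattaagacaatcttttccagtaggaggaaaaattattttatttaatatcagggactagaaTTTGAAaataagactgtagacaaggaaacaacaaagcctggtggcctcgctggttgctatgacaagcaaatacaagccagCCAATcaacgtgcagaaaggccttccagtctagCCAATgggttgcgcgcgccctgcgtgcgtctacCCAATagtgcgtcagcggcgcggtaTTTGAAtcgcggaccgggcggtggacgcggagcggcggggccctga
The Cdk6 window held none of these letters. The Cdkn2c window held an E2F site that began 25 bases before the gene start, and the gene's second RefSeq start had a CCAAT box in its window. In Mcm5, which encodes a subunit of the replicative helicase, 2 of 3 E2F matches overlapped. Ccnb2, a mitotic cyclin gene, had CCAAT boxes beginning 87, 54 and 21 bases before the start and CHRs beginning 167 bases before it and at base 5, counting the start as base 1.

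Of the 54 genes, 2 were higher in floor plate (Cdk6 and Cdkn2c) and 1 was lower (Ccnd1), and all 3 act in G1. None of the 16 S phase genes and none of the 20 measured G2/M genes passed. Over all 18193 genes 4.25% were called higher and 2.97% lower, 7.22% in either direction, so 3 of 54 is close to the share among all genes. Over all 126 probe sets, 3 were called higher and 1 lower, beside 2.70% and 2.01% of all probe sets on the array (4.71% in either direction). On the chosen probe sets, fits with 1 sample left out called Cdk6 and Cdkn2c each time, and fits without any 1 of the floor plate samples did not call Ccnd1.

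**Figure D1:**
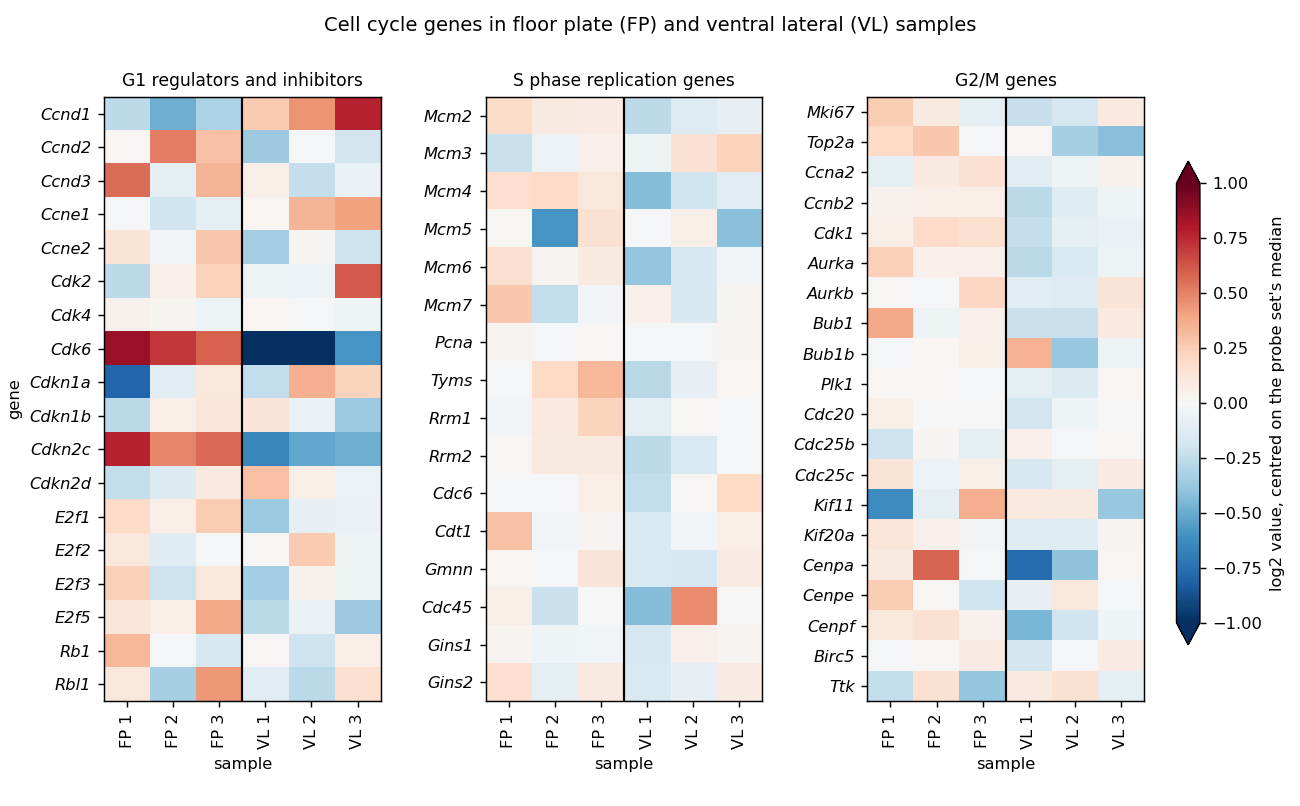
Log2 values of 54 cell cycle genes (rows, 1 probe set each, centred on the probe set's median) in 3 floor plate (FP) and 3 ventral lateral (VL) samples (columns), by class; colours saturate at -1 and 1. Cdk6 and Cdkn2c are red in all FP and blue in all VL samples, Ccnd1 the reverse, and most S phase and G2/M genes are pale, with VL 1 the bluest column.

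Cdk6 encodes the G1 kinase that partners with D-type cyclins. Its chosen probe set (1435338_at) stood at 0.86, 0.71 and 0.59 in floor plate samples 1 to 3, against -1.55, -1.09 and -0.59 in ventral lateral samples 1 to 3. The groups did not overlap, and the ventral lateral samples were spread more widely than the floor plate samples. The log2 difference was 1.80 (SE 0.23, 95% confidence interval 1.27 to 2.32), a 3.48-fold higher level in floor plate, with an adjusted p of 0.00439 (limma). A second probe set (1455287_at) was at 0.75, 0.41 and 0.30 in floor plate and at -0.81, -0.30 and -0.37 in ventral lateral samples, and it passed as well (log2 difference 0.98, limma adjusted p = 0.02). That second call was lost in some of the fits with 1 sample left out. The third (1460291_at) showed almost no difference, at 0.06 (interval -0.16 to 0.28). The Cdk6 difference depended on the probe set, and the mean of all 3 gave 0.95. Cdk4, the gene of the partner kinase with the same cyclins, differed by 0.01 to 0.02 on its 3 probe sets, with an interval of -0.18 to 0.23 on the chosen one.

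Cdkn2c encodes p18-INK4C, an inhibitor of CDK4 and CDK6, and had 1 probe set. It was at 0.77, 0.49 and 0.57 in floor plate samples 1 to 3 and at -0.65, -0.52 and -0.49 in ventral lateral samples 1 to 3. All floor plate samples lay above all ventral lateral samples by a margin wider than the spread inside either group. The log2 difference of 1.16 (SE 0.11, interval 0.91 to 1.42) is 2.24-fold higher in floor plate (limma adjusted p = 0.00136). A kinase gene and the gene of an inhibitor of that kinase were both higher in the same samples. The other inhibitor genes did not pass: Cdkn2d, a second INK4 gene, had a log2 difference of -0.20 (interval -0.51 to 0.12), Cdkn1b 0.07 (-0.30 to 0.45) and Cdkn1a -0.37 (-0.96 to 0.21). The wide interval of Cdkn1a includes differences near 2-fold, while its other probe set had a log2 difference of 0 (-0.43 to 0.43).

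Ccnd1 encodes cyclin D1, the G1 cyclin that links mitogen signals to the kinases CDK4 and CDK6. On the chosen probe set (1417419_at) it was at -0.26, -0.49 and -0.32 in floor plate samples 1 to 3 and at 0.26, 0.45 and 0.77 in ventral lateral samples 1 to 3. The groups did not overlap. The log2 difference was -0.85 (SE 0.15, interval -1.19 to -0.51), a level 1.80-fold higher in ventral lateral samples (limma adjusted p = 0.0171). The call was lost without floor plate sample 1 (adjusted p = 0.0524), 2 (0.0569) or 3 (0.0541), with log2 differences of -0.90, -0.78 and -0.87. The other 2 probe sets pointed the same way without passing, at -0.63 (limma adjusted p = 0.15) and -0.39 (0.105). On the first of them the groups overlapped. The mean of all 3 passed at -0.62 (limma adjusted p = 0.0221).

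The remaining D-type cyclin genes did not pass. Ccnd2, the cyclin D2 gene, had 7 probe sets, all with differences above 0, from 0.09 to 0.46. On the chosen one it was at 0.02, 0.51 and 0.29 in floor plate and at -0.36, -0.02 and -0.18 in ventral lateral samples (limma adjusted p = 0.163). Those groups did not overlap, but floor plate sample 1 and ventral lateral sample 2 were close. On every other Ccnd2 probe set the groups overlapped. Ccnd3, the cyclin D3 gene, had differences between -0.13 and 0.35 on its 3 probe sets, with overlapping groups on each. Whether Ccnd1 and Ccnd2 differ from each other between the regions was not tested.

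**Figure D2:**
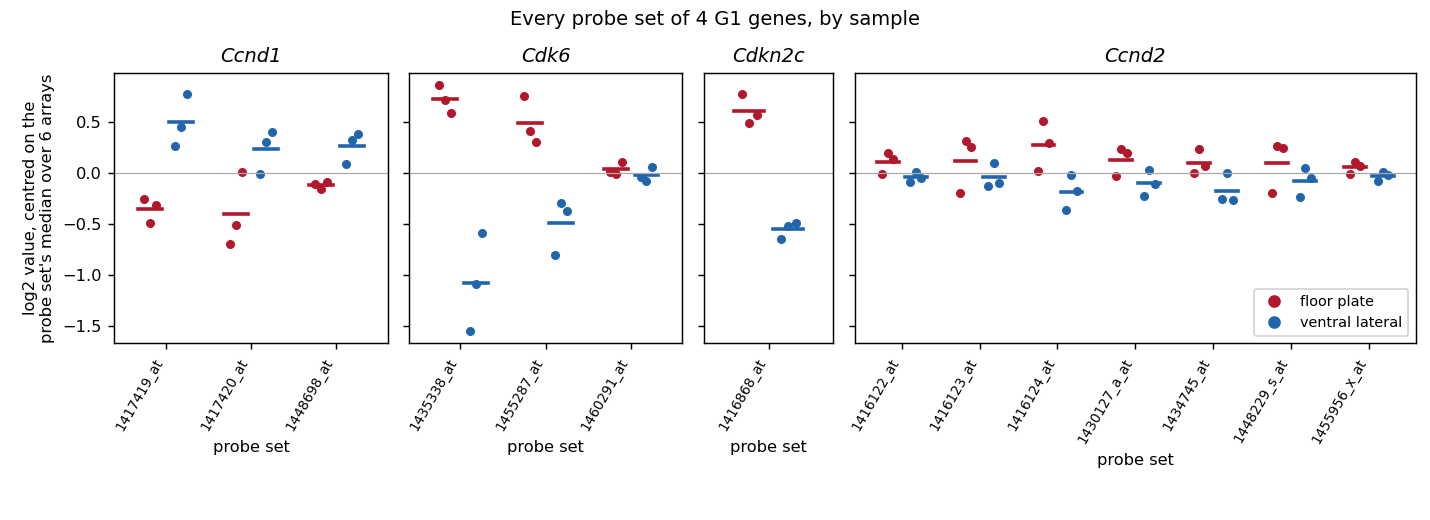
Log2 values by sample (points) and group means (bars) for every probe set of Ccnd1, Cdk6, Cdkn2c and Ccnd2, floor plate in red and ventral lateral in blue (n = 3 each). Floor plate samples lie below ventral lateral samples for Ccnd1, except for an overlap on probe set 1417420_at. They lie above for Cdkn2c and 2 of 3 Cdk6 probe sets, with smaller offsets for Ccnd2.

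Further along the G1 path, differences were small. Ccne1, the cyclin E1 gene, had both of its probe sets below 0 (-0.35 and -0.27), with floor plate samples below all ventral lateral samples on each, and did not pass (limma adjusted p = 0.204 and 0.29). Ccne2, the cyclin E2 gene, was at 0.30 and did not pass. E2f5, whose product is one of the repressor-type E2F factors, gave unlike results on its 3 probe sets, and none passed. The chosen one differed by 0.42 (limma adjusted p = 0.135), and another by 0.02 with overlapping groups. The third (1460207_s_at) was at 0.14, 0.19 and 0.29 in floor plate and -0.17, -0.15 and -0.14 in ventral lateral samples. Its difference was 0.36 (limma adjusted p = 0.0718), the nearest of the 3 to the threshold. E2f1, an activator E2F gene, had a difference of 0.34 (limma adjusted p = 0.191) on its chosen probe set. Its other probe sets gave 0.17 and 0.09, with overlapping groups. Cdk2, E2f2, E2f3, Rb1 and Rbl1 lay between -0.17 and 0.16 on all of their probe sets. Over the class, 12 of 18 genes were above 0 and the median log2 difference was 0.12 (0.04 with the mean of each gene's probe sets), beside -0.01 for all genes.

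**Figure D3:**
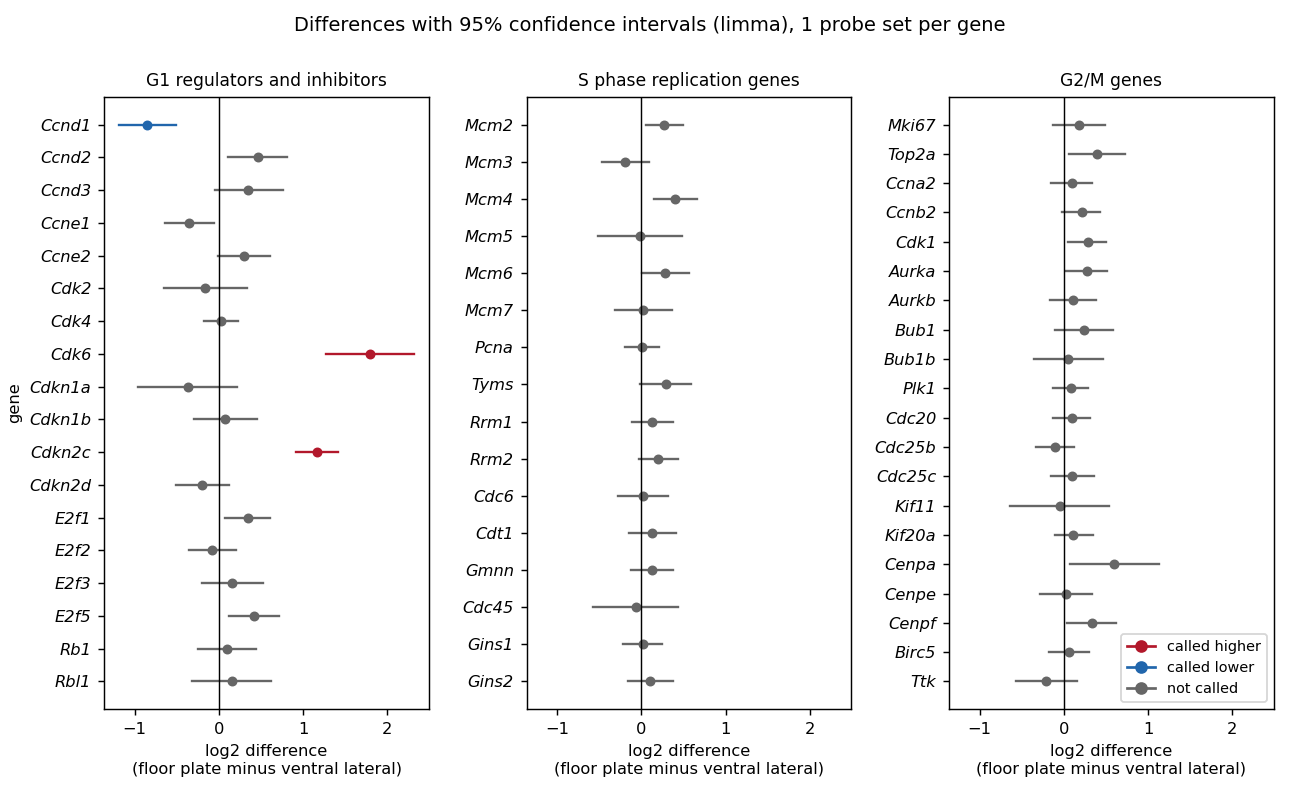
Log2 difference (floor plate minus ventral lateral) with its 95% confidence interval for each gene, 1 probe set each, by class. Cdk6 (1.80), Cdkn2c (1.16) and Ccnd1 (-0.85) stand away from 0, and the intervals of all S phase genes stay inside -1 to 1.

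The S phase genes showed small differences, and none passed. Their log2 differences ran from -0.19 to 0.40 with a median of 0.12 (0.05 with the mean of each gene's probe sets), and 13 of 16 were above 0. All 16 confidence intervals lay within a 2-fold difference in either direction and 14 within 1.5-fold, against 16369 and 11412 of the 18193 genes. At an unadjusted p under 0.05, 3 were higher and 0 lower in the limma fit, where 11.2% and 10.5% of all genes were (21.7% in either direction). Pcna, the gene of the sliding clamp of DNA polymerase, was at 0.03, -0.01 and 0.01 in floor plate and at -0.02, -0.01 and 0.03 in ventral lateral samples. Its difference was 0.01 with an interval of -0.19 to 0.21, the narrowest in the class.

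Mcm2 to Mcm7 encode the 6 subunits of the replicative helicase. Mcm4 came nearest to the threshold, at 0.17, 0.19 and 0.11 in floor plate and -0.43, -0.20 and -0.11 in ventral lateral samples (log2 difference 0.40, interval 0.15 to 0.66, limma adjusted p = 0.0993). Its other probe set gave 0.16. On the chosen probe sets, Mcm2 (0.27) and Mcm6 (0.28) had groups that did not overlap, and Mcm3 (-0.19), Mcm5 (-0.02) and Mcm7 (0.02) had groups that did. The other probe sets of Mcm2 (0.10) and Mcm6 (0.15 and 0.16) had overlapping groups too. Over all their probe sets, Mcm3 ran from -0.19 to 0.17, and Mcm5 and Mcm7 each from -0.02 to 0.10. Whether the subunits differ from one another was not tested. The licensing genes Cdc6 (0.02) and Cdt1 (0.13), the gene of the CDT1 inhibitor geminin, Gmnn (0.13), and the helicase partners Cdc45 (-0.06), Gins1 (0.02) and Gins2 (0.10) were all close to 0. Among genes of nucleotide supply, the ribonucleotide reductase gene Rrm2 differed in sign between probe sets, from -0.20 to 0.20, as did the thymidylate synthase gene Tyms, from -0.10 to 0.29. Rrm1, the other reductase subunit gene, ran from -0.02 to 0.13.

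For the G2/M genes the median log2 difference was 0.11, 17 of 20 genes were above 0, and the range was -0.21 to 0.60. None passed, and at an unadjusted p under 0.05 the limma fit had 5 higher and 0 lower, beside 11.2% and 10.5% of all genes. In 19 of 20 genes the confidence interval lay within 2-fold in either direction, and in 16 within 1.5-fold, as for 16369 and 11412 of all 18193 genes. The exception to the first was Cenpa, which encodes the histone variant of centromeres. It was at 0.09, 0.58 and -0.02 in floor plate and -0.77, -0.40 and 0.02 in ventral lateral samples on the chosen probe set, with overlapping groups (log2 difference 0.60, interval 0.07 to 1.13). Its other probe sets gave 0.18 and 0.19.

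Cdk1, the gene of the mitotic kinase, was at 0.07, 0.19 and 0.16 in floor plate and at -0.24, -0.10 and -0.07 in ventral lateral samples, a difference of 0.28 (interval 0.05 to 0.50, limma adjusted p = 0.199). The groups did not overlap, but the gap was small. Ccnb2, whose promoter is printed above, was at 0.04, 0.07 and 0.07 in floor plate and -0.27, -0.12 and -0.04 in ventral lateral samples, with a difference of 0.21 (limma adjusted p = 0.357). Mki67, the gene of the proliferation antigen Ki-67, was at 0.25, 0.09 and -0.09 in floor plate and -0.23, -0.17 and 0.10 in ventral lateral samples, with overlapping groups (0.18, interval -0.13 to 0.49). The intervals of these 3 genes leave room for a higher level in floor plate of up to 1.42-fold for Cdk1, 1.35-fold for Ccnb2 and 1.40-fold for Mki67. Those of Ccnb2 and Mki67 also include lower levels in floor plate, down to 0.985-fold and 0.914-fold.

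Among the other mitotic genes, Aurka, an Aurora kinase gene of spindle poles, was at 0.27, and at 0.02 on its other probe set. Aurkb, the Aurora kinase gene of the chromosomal passenger complex, was at 0.11, with Birc5 of the same complex at 0.06. The spindle checkpoint kinase genes Bub1 (0.24), Bub1b (0.05) and Ttk (-0.21) and the APC activator gene Cdc20 (0.09) did not pass. Ttk was at 0.27 on its other probe set. The polo-like kinase gene Plk1 (0.08), the cyclin A2 gene Ccna2 (0.09) and the mitotic kinesin gene Kif20a (0.11) were near 0, as were the phosphatase genes Cdc25b (-0.11) and Cdc25c (0.10). The topoisomerase gene Top2a (0.39) and the centromere protein gene Cenpf (0.33) were larger, with adjusted p of 0.223 and 0.234 (limma), while Cenpe, a kinetochore motor gene, was at 0.02. Other probe sets gave 0.18 and 0.10 for Top2a, 0.17 and 0.03 for Cenpf, and 0.13 for Cenpe. Kif11, a spindle motor gene, was at -0.05 on a probe set with wide scatter and at 0.11 and 0.26 on the others.

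Floor plate values lay above all ventral lateral values for 13 of 54 genes and below them for 2, where 13.1% and 12.6% of all genes did so, 25.8% in either direction. In all, 42 of 54 genes had a difference above 0, against 48.6% of all genes. Ventral lateral sample 1 held the lowest of the 6 values for 12 of 16 S phase genes and 10 of 20 G2/M genes, and for 6 of 18 G1 genes, against 18.8% of all genes. The mean over S phase genes was 0.07, -0.04 and 0.09 in floor plate samples 1 to 3 and -0.19, -0.03 and 0.01 in ventral lateral samples 1 to 3. For G2/M genes the means were 0.04, 0.08 and 0.02 in floor plate and -0.14, -0.12 and -0.03 in ventral lateral samples. Without ventral lateral sample 1 the median difference was 0.07 for S phase genes and 0.08 for G2/M genes, against 0.12 and 0.11 with it. This was not particular to that sample. The S phase median was 0.04 without floor plate sample 1, and 0.17 without floor plate sample 2. The G2/M median was 0.09 without ventral lateral sample 2, and 0.17 without ventral lateral sample 3.

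Newborn neurons leave the cell cycle, so their markers were set beside these genes. Of 13 markers of postmitotic neurons, 3 were lower in floor plate and 0 higher (median log2 difference -0.46), where 2.97% and 4.25% of all genes were. The lower markers were Ina (-1.05), Nefl (-0.68) and Stmn2 (-0.66), which encode neuronal cytoskeleton proteins and a microtubule regulator. Not all markers pointed this way: Nhlh1 (0.59, limma adjusted p = 0.0636) and Nhlh2 (0.30), bHLH factor genes of newborn neurons, did not pass, but all their floor plate values lay above all ventral lateral values. Elavl4, a neuronal RNA-binding protein gene, was at 0.05. These 3 are named after their values were seen. The list mean was -0.27, -0.05 and -0.22 in floor plate samples 1 to 3 and 0.41, 0.24 and -0.07 in ventral lateral samples 1 to 3, so the groups overlapped. Ventral lateral sample 1 held the highest value for 10 of the 13. The part of neuronal content in the cell cycle values was not tested. In pooled tissue, fewer cells of a type and less RNA per cell cannot be told apart.

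**Figure D4:**
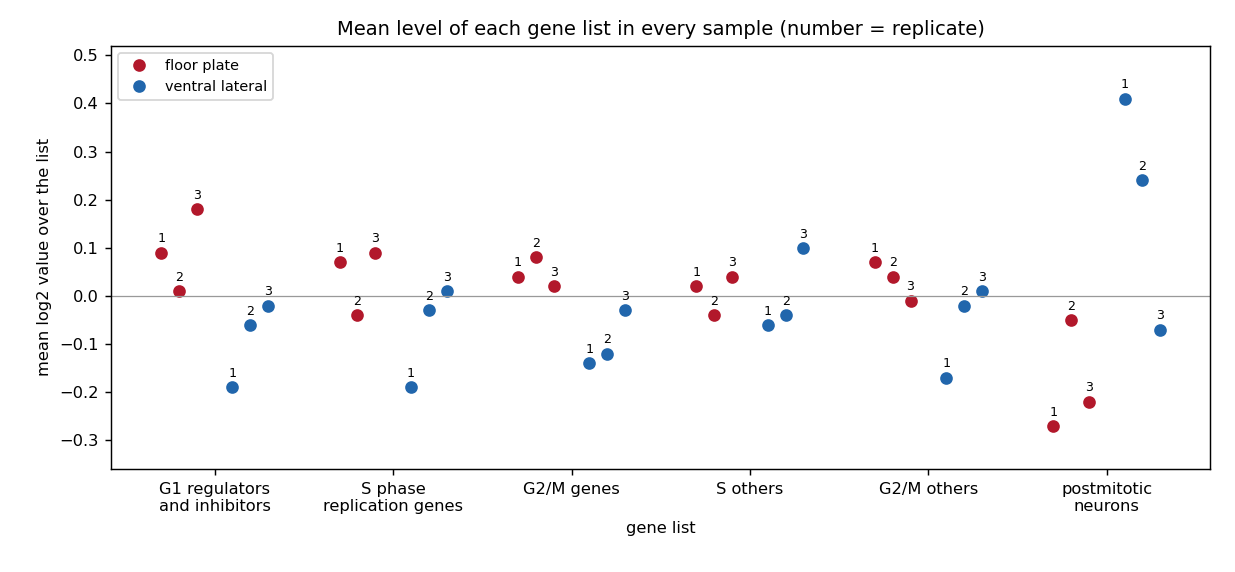
Mean log2 value of 6 gene lists (x axis) in every sample; points are samples, numbers are replicates, floor plate in red and ventral lateral in blue. Ventral lateral sample 1 is lowest for S phase (-0.19) and G2/M (-0.14) genes and highest for postmitotic neuron markers (0.41).

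Among markers of the progenitor state, 1 of 9 was higher (Prom1, 0.62) and 1 lower (Sox1, a SoxB1 factor gene, -2.83), with a median of 0.02. Over all genes, 4.25% were called higher and 2.97% lower. Of the lists for other cell types, mesenchyme had 1 of 6 genes higher (Twist1, 2.11), with list means of -0.30, 0.72 and 0.05 in floor plate and -0.58, 0.26 and -0.21 in ventral lateral samples. None of 5 erythroid, 6 endothelial or 4 microglia and macrophage genes passed in the limma fit. At an unadjusted p under 0.05 these had 0, 1 lower, and 1 higher with 1 lower. Over all genes, 11.2% were higher and 10.5% lower at that threshold.

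Cell cycle genes outside the 55 were counted in the same way. Of 17 further G1 genes, 37 further S phase genes and 53 further G2/M genes, 0 passed in the limma fit, with median log2 differences of 0.12, 0.05 and 0.13. Over all genes, 7.22% passed. At an unadjusted p under 0.05 there were 3 higher and 3 lower G1 genes, 2 and 2 S phase genes, and 8 and 2 G2/M genes, where 11.2% of all genes were higher and 10.5% lower. Ventral lateral sample 1 was again lowest for 34 of the 53 further G2/M genes and 15 of the 37 further S phase genes. Among 13 genes of cell cycle exit and the p53 response, 1 was lower and 0 higher (median -0.07), beside 2.97% and 4.25% of all genes. The lower gene was Gadd45g, a growth arrest gene known to be switched on as neural progenitors differentiate. It was at -0.56, -0.27 and -0.50 in floor plate and 0.71, 0.27 and 0.38 in ventral lateral samples, without overlap (log2 difference -0.89, SE 0.14, limma adjusted p = 0.0126).

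**Figure D5:**
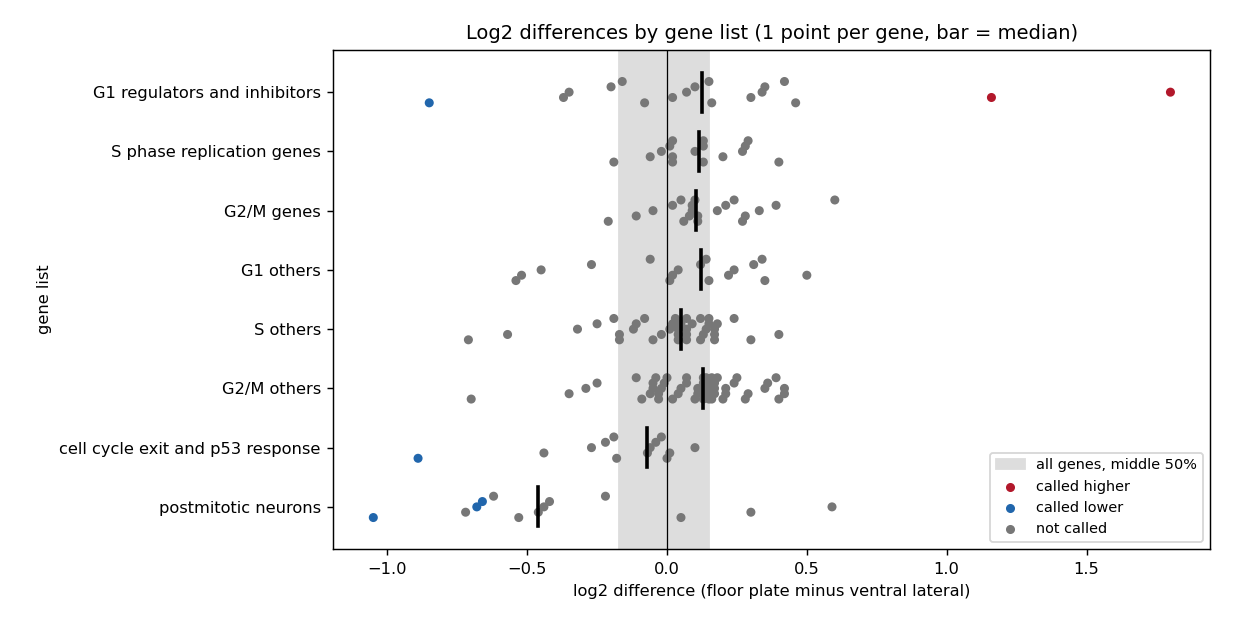
Log2 differences (floor plate minus ventral lateral) of the genes of 8 lists, 1 point a gene, with list medians as black bars and the middle 50% of all genes (-0.17 to 0.15) in grey; "others" are cell cycle genes outside the 55. S phase and G2/M genes cluster near 0, and the called genes are Cdk6, Cdkn2c and Ccnd1 in G1, Gadd45g among exit genes and 3 neuron markers.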

How the data were processed

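Total RNA from 3 floor plate and 3 ventral lateral pools was amplified and hybridised to Affymetrix arrays. The authors deposited log values, taken here as log2, for 45101 probe sets. The submitters' processing notes name RMA; its version, the log base, the direction and the centring step are not given in the sources used here. Over the 6 arrays, a probe set's values had a median within 1e-05 of 0 in 100% of probe sets. No signal level, background or filter on low values could therefore be used. The number of arrays limits the precision (median SE of a difference 0.127).

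Names came from the platform annotation (34945 probe sets with 1 symbol, 932 with several, 9160 with none), checked through Entrez identifiers against RefSeq (GRCm38.p6), which changed 0 symbols. A further probe set shared by Tyms and a pseudogene was not used. After removal of 64 controls, floor plate minus ventral lateral was estimated in R 4.3.3 by limma 3.58.1 (lmFit, eBayes), and p-values were adjusted by Benjamini-Hochberg across 45037 probe sets. The fit was tested on simulated data. Each gene was represented by its most variable probe set. The group labels were not used, but this variance includes any difference between the regions. The choice can therefore favour probe sets with a large difference, as for Cdk6 and Ccnd1, or with wide scatter, as for Kif11. All 55 genes were to be named, and from other lists up to 4 called genes each. Of 177 genes in the other lists, 172 had a singly named probe set. The genes and lists were chosen with earlier results of these data known. No set test was run. The alternatives were other normalization, probe sets, weights, thresholds, a robust eBayes, adjustment over genes, a replicate block and leaving out each sample. Plots used matplotlib 3.10.9 in Python 3.11.15.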

Additional observations from a re-analysis of the deposited data

How the results depend on the processing

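Cdk6 and Cdkn2c were called under every alternative fit, except that the Cdk6 probe set 1460291_at taken alone did not pass (0.06, limma adjusted p = 0.836). No called difference changed sign. Differences of some genes that were not called crossed 0 with a sample left out, for example Bub1b (-0.13 to 0.24) and Cdc45 (-0.29 to 0.16). On its chosen probe set, Ccnd1 was lost at a threshold of 0.01 and without any 1 floor plate sample. Neither of its other probe sets passed with all samples in the fit. Without floor plate sample 3, 1 probe set of the 55 genes was lower, and it was not the chosen one of Ccnd1. At 0.01, 0 cell cycle genes were lower (0 G1 genes, 0 probe sets of the 55 genes) and 957 probe sets were called over the array, against 2121 at 0.05. At 0.1, 5 probe sets of these genes were higher, and 1 S phase gene, Mcm4. With each sample left out, 0 to 1 cell cycle genes (0 to 1 G1 genes, 0 to 1 probe sets) were lower, and 1263 to 1662 probe sets were called, with fewer samples in the fit. The median log2 difference ranged over these fits from 0.07 to 0.21 for G1, 0.04 to 0.17 for S phase and 0.08 to 0.17 for G2/M genes. The G1 median of 0.12 was 0.04 with the mean of probe sets and 0.01 with the lowest-numbered probe set. The S phase median of 0.12 was 0.05 and 0.08 under the same choices and 0.06 without _x_at and _s_at probe sets. The cause was not tested. With the replicate number as a block, 1904 probe sets were called, with the same 3 genes: Ccnd1 (limma adjusted p = 0.0298), Cdk6 (0.0133) and Cdkn2c (0.00785). Deviations from the group means correlated at 0.01, 0.12 and 0.11 between same-numbered samples 1 to 3. The values for samples 2 and 3 were the highest of all floor plate and ventral lateral pairs. Floor plate sample 1 correlated best with ventral lateral sample 3 (0.03). Correlations this low do not settle whether the numbers pair the samples, and the main fit used no pairing. A shared source of the pools was not tested. The deposited values hold no signal over background, so dim probe sets could not be set aside.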

Other observations

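Outside the 55 genes, 4 further cell cycle genes had an adjusted p under 0.1 without passing, and they are named here after their values were seen. Pola1, the catalytic subunit gene of DNA polymerase alpha, was at 0.20, 0.13 and 0.23 in floor plate and at -0.27, -0.24 and -0.13 in ventral lateral samples (log2 difference 0.40, limma adjusted p = 0.0592). Nek2, a centrosomal kinase gene, had a log2 difference of 0.42 (limma adjusted p = 0.0968). Slbp, which encodes the histone mRNA stem-loop binding protein, was at -0.83, -0.15 and -0.64 in floor plate and at 0.15, 0.21 and 0.15 in ventral lateral samples (log2 difference -0.71, limma adjusted p = 0.0627). Tfdp2, an E2F partner gene, had a log2 difference of -0.52 (limma adjusted p = 0.092).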
